A study of Mus musculus with 2 samples.

Results

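The expression of 10 genes for platelet surface glycoproteins, receptors and alpha-granule chemokines was followed in mouse spleen, 10 of 20655 genes that the arrays name. They were picked by name, with earlier results of these data known, and matched to probes through the RefSeq accession printed with each probe. All 10 had at least 1 probe, 15 probes together. Spleen RNA came from untreated, healthy male mice of the genotypes Loxl3+/+ (wild type) and Loxl3-/- (knockout), with 1 one-colour array per genotype. Neither the age nor the strain of the animals, nor the design of the deleted allele, nor a pooling of animals is stated in the labels. A single array per genotype gives no estimate of the spread between animals, so the differences below are descriptions without p-values and none has been replicated.

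Platelets are shed by megakaryocytes, large polyploid cells of the marrow that in mice are also found in the red pulp of the spleen, and the spleen holds a store of circulating platelets. The GPIb-IX-V complex, built from the products of Gp1ba, Gp1bb, Gp9 and Gp5, catches von Willebrand factor on damaged vessel walls. The integrin alphaIIb beta3, encoded by Itga2b and Itgb3, then binds fibrinogen and links platelets to one another. Pf4 and Ppbp encode chemokines stored in alpha granules, Treml1 encodes a receptor of the granule membrane that reaches the surface on activation, and Clec1b encodes CLEC-2, a receptor for podoplanin.

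Processed signals, which are background-corrected fluorescence values, had a 75th percentile over probes of 974 for wild-type and 1400.0 for knockout-labelled RNA, and differences are given after each array was divided by its own. The probe of the targeted gene, Loxl3, read 117 in the wild type and 125 in the knockout, which after scaling came to −0.43 ± 0.29 on the log2 scale. Its place relative to the deletion is unknown here, so the array is called knockout-labelled throughout. Spleen markers were above background on both arrays for 7 of 7 B cell genes, 7 of 7 T cell genes and 8 of 8 red pulp macrophage genes. Errors after ± are those of the scanner software per spot, carried to the log2 scale, and hold no variation between animals. For a probe with repeated spots they are the error of the mean over its spots, which is smaller. Over 269 probes printed 10 times, the log2 difference had a median SD of 0.113 between spots.

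Platelet glycoprotein and granule chemokine genes were lower on the knockout-labelled array. Of the 10 genes, 9 were above background, each on both arrays, and all 9 had a scaled log2 difference below 0, from −1.91 (Treml1) to −0.76 (Itga2b), as had 59.2% of all measured genes. The count at 2-fold or more was 6 lower (Treml1, Gp1ba, Ppbp, Pf4, Gp9 and Clec1b) and 0 higher. As background, 2.26% of the 13716 measured genes were at least 2-fold lower and 2.57% at least 2-fold higher. The 10 genes were chosen with earlier results of these data known, so their share is not independent of those results. Without scaling between the arrays 4 genes remained 2-fold lower (Treml1, Gp1ba, Ppbp and Pf4), with Gp9 at −0.84 and Clec1b at −0.67. At 1.5-fold all 9 were lower, where the background was 9.48% lower and 8.04% higher. The median of the 9 genes was −1.36, or 2.57-fold lower, beside −0.09 over all genes. The 12 probes of these genes that were above background all read lower after scaling. In whole spleen RNA, fewer cells of a type and less RNA per cell cannot be told apart.

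**Figure D1:**
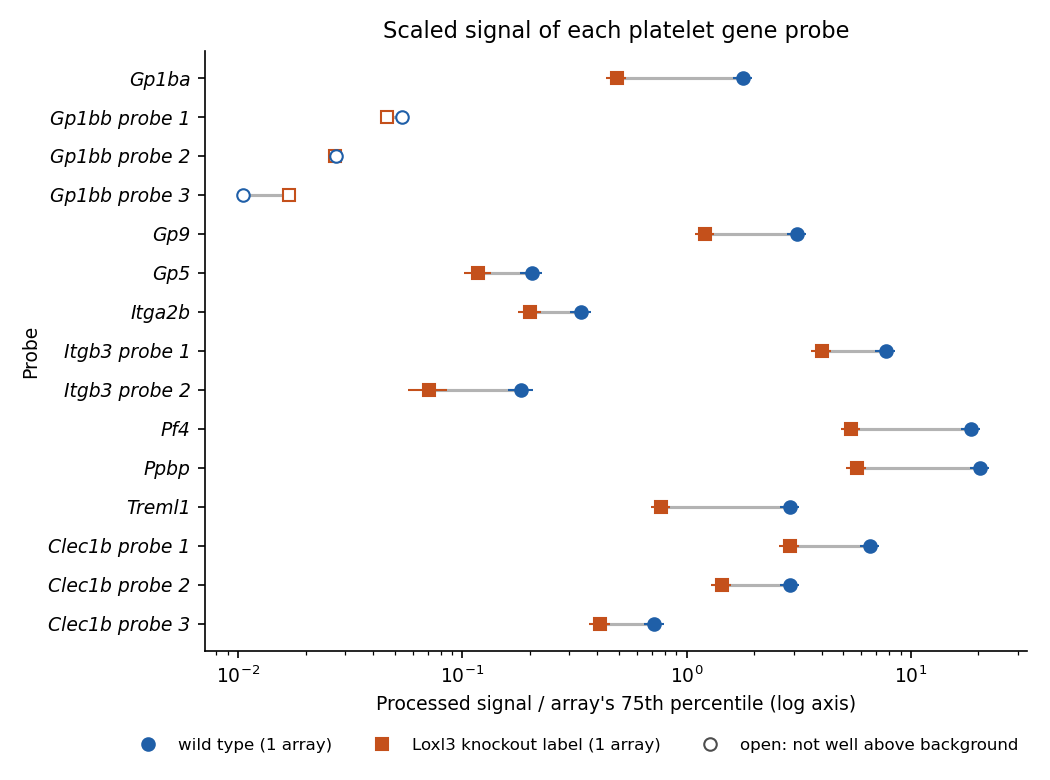
Each row is a probe, and the horizontal log axis is its processed signal divided by the 75th percentile of the array (circles, wild type; squares, knockout-labelled; bars, software error of the spot). Filled squares lie left of filled circles for all 12 probes above background, and the 3 open pairs are the probes of Gp1bb, not well above background on either array.

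Within the GPIb-IX-V complex, the von Willebrand factor-binding subunit differed most. The signal of Gp1ba was 1733 ± 173 in the wild type and 683 ± 69.3 in the knockout-labelled RNA. After scaling, this was a log2 difference of −1.86 ± 0.21, or 3.64-fold lower, and only 0.445% of genes had a value as low. Gp9, the small subunit needed to bring the complex to the surface, read 3018 ± 302 and 1690.0 ± 170.0, a difference of −1.36 ± 0.20 (2.57-fold lower). For both genes the wild-type signal was the higher before scaling too.

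Gp5 encodes the subunit that thrombin cleaves, and its probe was dimmer. It read 199 ± 22.3 on the wild-type and 165 ± 22.4 on the knockout-labelled array, so the unscaled ranges overlapped. After scaling the difference was −0.80 ± 0.25, which is short of 2-fold. Gp1bb, the beta subunit joined to the Gp1ba product, could not be measured. Its 3 probes read 52.6, 26.5 and 10.2 in wild-type and 64.7, 37.8 and 23.7 in knockout-labelled RNA, none of them well above background, where negative controls averaged 11.5 and 14.9. No fold is given for it. The gene span of Gp1bb overlaps that of Septin5 in RefSeq, and Septin5, a gene of the cytoskeletal septin family, read 68.0 and 111 (0.19 ± 0.32).

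The stretch just before the transcription start was compared because these genes share expression in megakaryocytes, where GATA and ETS family factors are known to act on platelet gene promoters. RefSeq promoter sequences (build GRCm38.p6) were matched for 9 of the 10 genes, all except Itgb3, and the 250 bases before each start were searched on both strands. The motif of GATA factors was taken as AGATAA and, in a second form, as TGATAA. The core of ETS sites was taken as GGAAG, and no match of it overlapped a GATA match in these genes. Shown are the last 150 bases before the start for Gp1ba and Gp5, where both motifs occur, and for the neighbouring chemokine genes Ppbp and Pf4, with motif matches in capitals.
The stretch shown lies for Gp1ba at chr11:70638972-70639121 on the plus strand, for Gp5 at chr16:30310782-30310931 on the minus strand, for Ppbp at chr5:90768368-90768517 on the plus strand and for Pf4 at chr5:90772285-90772434 on the plus strand.
Gp1ba: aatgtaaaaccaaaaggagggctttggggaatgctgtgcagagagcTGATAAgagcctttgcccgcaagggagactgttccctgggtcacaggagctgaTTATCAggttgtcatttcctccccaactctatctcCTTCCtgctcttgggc
Gp5: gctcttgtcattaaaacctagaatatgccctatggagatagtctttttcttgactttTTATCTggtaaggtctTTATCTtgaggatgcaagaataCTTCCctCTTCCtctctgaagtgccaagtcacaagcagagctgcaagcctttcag
Ppbp: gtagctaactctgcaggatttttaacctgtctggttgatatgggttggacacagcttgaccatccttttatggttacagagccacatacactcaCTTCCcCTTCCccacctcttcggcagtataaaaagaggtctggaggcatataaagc
Pf4: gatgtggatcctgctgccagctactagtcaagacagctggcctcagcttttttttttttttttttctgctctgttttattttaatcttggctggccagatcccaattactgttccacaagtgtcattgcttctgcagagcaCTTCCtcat

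The GATA motif was found before 3 of the 9 genes (Gp1ba, Gp5 and Clec1b) and in 16.6% of 32851 RefSeq promoters. Gp1ba held it at −104 to −99 and again, on the other strand, at −51 to −46, counted from the start. The ETS core was found before 8 of 9, all but Clec1b, and in 64.1% of all promoters, so it is common. Both motifs together stood before 2 genes (Gp1ba and Gp5), against 9.52% of promoters. Gp1ba differed by −1.86 and Gp5 by −0.80, while Treml1, at −1.91, had an ETS core alone, at −193 to −189. A match describes these letters only and shows no binding.

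The fibrinogen receptor genes differed less than the von Willebrand receptor gene Gp1ba. Itga2b, whose product is the alphaIIb chain restricted to the megakaryocyte line and early progenitors, read 330.2 ± 35.8 on the wild-type and 279.9 ± 32.7 on the knockout-labelled array. The scaled difference was −0.76 ± 0.23, or 1.69-fold lower, and 5.08% of genes were as low or lower. Without scaling the ranges of the 2 arrays overlapped.

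Itgb3 encodes the beta3 chain, which also pairs with the alphaV chain on macrophages and endothelium. Its brighter probe read 7504 ± 751 and 5599 ± 560.2, a scaled difference of −0.95 ± 0.20 (1.93-fold lower). Its other probe, at 178 ± 22.5 and 99.7 ± 19.4, gave −1.36 ± 0.33, past 2-fold. The call for Itgb3 thus turns on the probe, and it also passed 2-fold with scaling on array medians (−1.04). Itgav, the alphaV partner gene, stood on the other side of 0, at 0.50 ± 0.21, its second probe giving 0.61.

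The granule chemokine genes had nearly equal differences. Ppbp, the precursor gene of the neutrophil attractant NAP-2, read 19791 ± 1979 on the wild-type and 8017 ± 802 on the knockout-labelled array. Pf4, encoding the heparin-binding platelet factor, read 18081 ± 1808 and 7562 ± 756. The scaled differences were −1.83 ± 0.20 and −1.78 ± 0.20, 3.55-fold and 3.43-fold lower, and the wild-type array was the higher for both, before scaling too. With quantile normalization between the arrays these became −1.59 and −1.52.

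Ppbp and Pf4 lie side by side on chromosome 5 within a cluster of related chemokine genes. Cxcl5, the next gene on the Ppbp side and an attractant of neutrophils, read 279 and 324 (−0.30 ± 0.22). Rassf6, beyond it, was at 0.44 ± 0.23. Cxcl3, Cxcl15, Cxcl1 and Cxcl2 were not above background on either array. Of the receptors that chemokines of this family are known to use, Cxcr2 was at −0.18 ± 0.23 and Cxcr3 at −0.35 ± 0.20.

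Treml1 had the lowest value of the group. Its signal was 2815 ± 282 on the wild-type and 1075 ± 108 on the knockout-labelled array. The difference of −1.91 ± 0.20, or 3.76-fold lower, was matched or passed by 0.430% of genes. Related receptor genes of the same cluster lay higher, with Treml2 at −0.05 ± 0.21, Trem2, a macrophage receptor gene, at −0.69 ± 0.22, Trem1 at −0.22 ± 0.20 and Treml4 at 0.85 ± 0.22. Trem3, another receptor gene of the cluster, was at −1.34 ± 0.33, with signals of 181 and 102.

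Clec1b gave 3 probes above background, all lower on the knockout-labelled array. The brightest read 6400.2 ± 640.1 and 4032 ± 403, a difference of −1.19 ± 0.20 or 2.28-fold lower. The others read 2816 and 2004 (−1.01 ± 0.20) and 698 and 577 (−0.80 ± 0.21). The probes shared a direction and spanned −1.19 to −0.80, the dimmest being under 2-fold. The ligand gene Pdpn, for podoplanin on stromal cells, was at −0.41 ± 0.21, with signals of 585 and 634. Clec9a, the adjacent gene and a dendritic cell receptor, was at −0.19 ± 0.20, and Clec1a, detected in knockout-labelled RNA only, was at 0.04 ± 0.50, within its error of 0.

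Put in order, the genes ran Treml1 (−1.91), Gp1ba (−1.86), Ppbp (−1.83), Pf4 (−1.78), Gp9 (−1.36), Clec1b (−1.19), Itgb3 (−0.95), Gp5 (−0.80) and Itga2b (−0.76). Of the 8 steps between neighbours in this order, 1 was larger than its software error, that from Pf4 to Gp9 (0.42, error 0.29). The first 4 genes are 1 granule receptor, 1 subunit of the von Willebrand receptor and both chemokines. Subunits of 1 receptor were not alike, since Gp1ba and Gp5 lay at opposite ends. Of the 9 differences, 8 were below the 5th percentile of all genes (−0.76), with Itga2b just outside it. Without scaling, Gp5 was at −0.27 and Itga2b at −0.24, close to their software errors of 0.25 and 0.23.

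**Figure D2:**
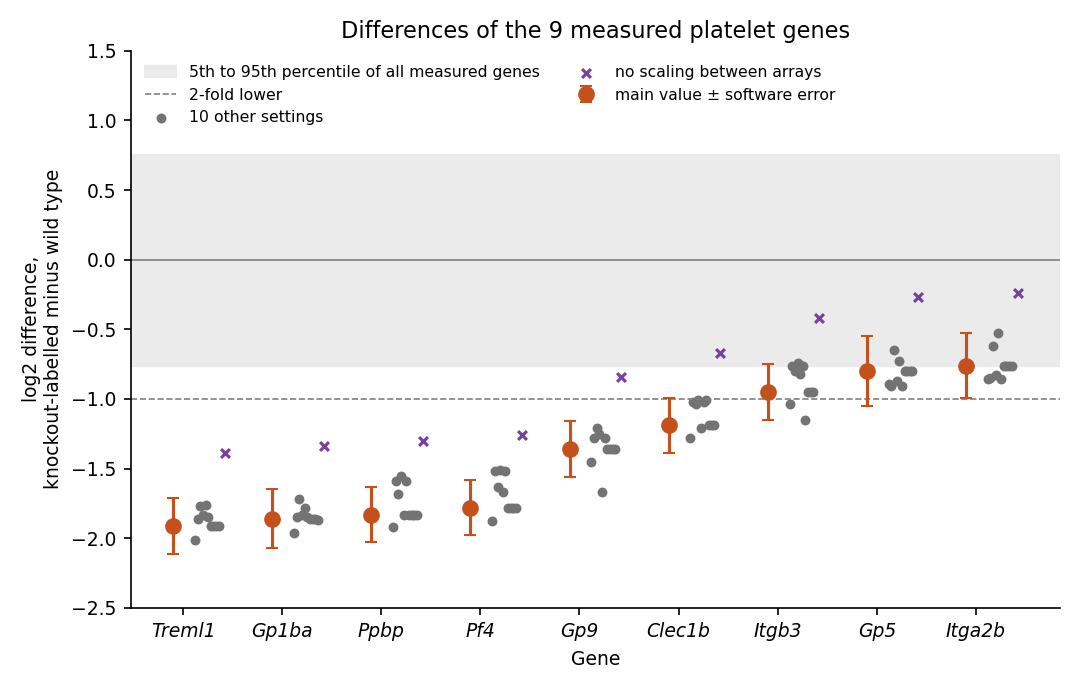
The vertical axis is the log2 difference, knockout-labelled minus wild type, for the 9 measured genes (large points, main value with software error; small points, other processing settings; crosses, no scaling between arrays). All points lie below 0, and the first 4 genes stay below the dashed 2-fold line in every setting, without scaling too.

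The genes that lie beside them on the chromosomes lay closer to 0. The 3 nearest protein-coding genes on each side gave 54 neighbours on 5 chromosomes, of which 33 were measured. Their median was −0.09, equal to that of all genes. None was 2-fold lower and 1 (Slc25a39) was counted as 2-fold higher, beside 2.26% and 2.57% of all genes. The lowest was Trem2 (−0.69). Trem3, of the same cluster but not among the 3 genes nearest to Treml1, was at −1.34 ± 0.33. Slc25a39, a mitochondrial carrier gene near Itga2b, was detected in knockout-labelled RNA only, higher by at least 1.74-fold. Each of the 9 genes was lower than all its measured neighbours, the Ppbp and Pf4 pair set aside. The difference between the genes and their neighbours was not tested, since genes are not replicates.

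**Figure D3:**
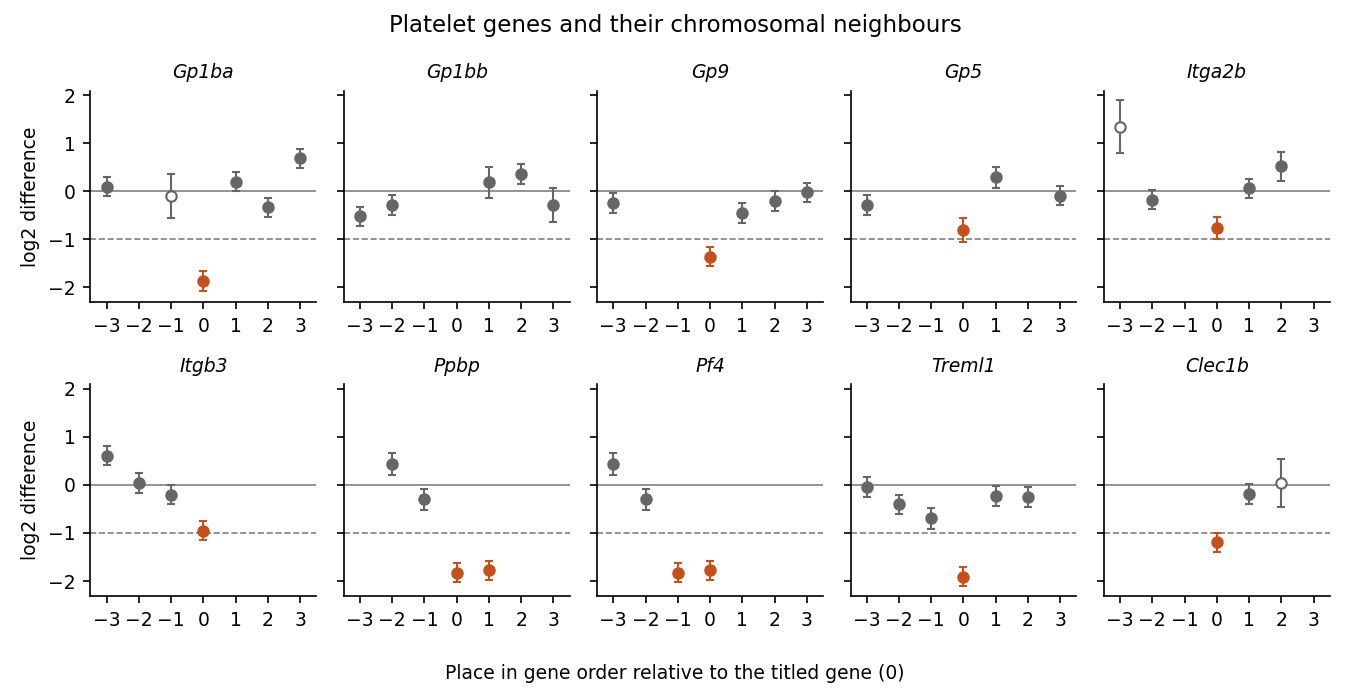
Each panel shows a platelet gene at place 0 and up to 3 genes on each side in RefSeq order, with the log2 difference on the vertical axis (bars, software error; open points, above background on 1 array alone; gaps, not measured). Coloured points are the platelet genes, and they lie below the grey neighbours in every panel where they were measured; Gp1bb has no point.

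Among other genes of platelet biology the picture was mixed. In 7 lists of 103 genes, 98 were measured, of which 13 (13.3%) were at least 2-fold lower and 1 higher, beside 2.26% and 2.57% of all genes. These lists too were chosen with earlier results of these data known. The median of the 98 genes was −0.24. With scaling on probes above background on both arrays the count was 8 lower and 3 higher. Without scaling, which raises every difference by 0.52, it was 4 lower and 10 higher, the median was 0.28, and the medians of all 7 lists were above 0, so the sign of these medians depends on the scaling.

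Other surface receptors divided, with 4 of 23 measured genes 2-fold lower, 0 higher and a median of −0.23. Gp6, the collagen receptor gene, read 371 on the wild-type and 174 on the knockout-labelled array, −1.61 ± 0.25. Selp, for P-selectin, a granule membrane protein of platelets and endothelium, read 118 and 74.4 (−1.19 ± 0.12). P2ry1, an ADP receptor gene, was at −1.02 ± 0.26. Adra2a, an adrenaline receptor gene detected in wild-type RNA only, read 87.6 and 61.2. Its difference of −1.04 ± 0.50 (2.06-fold lower) is the measured value and not a minimum, and its error reaches to less than 2-fold. The immune-type inhibitory receptor gene Mpig6b, also detected in wild-type RNA only, read 65.3 and 72.3 (−0.37 ± 0.44), a difference within its error that has no settled direction. Receptors shared with many other cells lay on both sides of 0, with Cd36 at 0.70 ± 0.20 and Itgb1 at 0.58 ± 0.20 but Cd63 at −0.44 ± 0.20 and Itga6 at −0.39 ± 0.20. P2ry12, the receptor that clopidogrel blocks, was at 0.24 ± 0.21.

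The list of alpha-granule cargo and biogenesis genes also divided, with 4 of 18 genes 2-fold lower, 0 higher and a median of −0.33. Rab27b, a GTPase gene of granule secretion, read 882 and 333, at −1.93 ± 0.21, and its other probe was at −2.27. Mmrn1, for multimerin, the carrier of factor V, was at −1.68 ± 0.24. Thbs1, for thrombospondin, was at −1.40 ± 0.20 and Vwf, shared with endothelium, at −1.05 ± 0.20. Values above 0 were among them too, with Srgn, the granule proteoglycan gene, at 0.23 ± 0.20 and Tgfb1 at 0.98 ± 0.07. The machinery genes Nbeal2 and Vps33b, needed to build alpha granules, were at −0.12 ± 0.21 and −0.04 ± 0.21.

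In the enzymes and dense granules list 1 of 11 genes was 2-fold lower, Alox12, the platelet lipoxygenase gene (3916 and 2418, −1.22 ± 0.20). Slc35d3, a dense granule gene, was at −0.97 ± 0.21, and Ptgs1 and Tbxas1, which make thromboxane, were at −0.46 ± 0.20 and −0.47 ± 0.20. None of the 13 measured genes in the list for receptor signalling and integrin activation passed 2-fold in either direction. Lat, placed in the T cell list and not in this list, was at −1.77 ± 0.20. The median of the 13 genes, −0.06, turned positive under 4 of the scalings. It did so in the deposited table too, whose values are close to those of quantile normalization, 1 of these scalings. Rasgrp2, the exchange factor gene for Rap1, was at −0.06 ± 0.20 and Fermt3, for kindlin-3, at 0.25 ± 0.20.

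Cytoskeletal genes had a median of −0.39, or −0.01 with quantile normalization. Of the 12 measured, Tuba8, an alpha-tubulin gene, was 2-fold lower (442 and 158, 4.01-fold). Mylk, the myosin kinase gene, was the 1 counted as 2-fold higher (1.62), but it was detected in knockout-labelled RNA only and its bound is at least 1.19-fold higher. Tubb1, the tubulin of the platelet marginal band, was dim at 217 and 221, a difference of −0.50 ± 0.25.

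Of 16 transcription factor genes 3 were 2-fold lower and 0 higher, with a median of −0.28. They were Tal1 (1560.3 and 1012, −1.15 ± 0.21), Gata1 (1727 and 1142, −1.12 ± 0.21) and Nfe2 (1634 and 1103, −1.09 ± 0.20), factors that the erythroid and megakaryocyte lines share. Gfi1b, of the same lines, was at −0.87 ± 0.22. Fli1 and Runx1, factors also used by lymphoid and endothelial cells, were at 0.31 ± 0.20 and 0.53 ± 0.21, and Zfpm1, the cofactor of Gata1, at −0.08 ± 0.20. In thrombopoietin signalling 0 of 5 genes passed 2-fold, and Thpo, the hormone's gene, was not above background.

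Markers of other cells also differed between the arrays, and their part in the platelet gene differences was not tested. Neutrophil and granulocyte precursor genes were below 0 in 13 of 13 cases, beside 59.2% of all genes, with 10 at 2-fold lower and a median of −1.62. Their summed signal, in units of the array's 75th percentile, was 206 on the wild-type and 60.4 on the knockout-labelled array. Camp and Ltf, genes of neutrophil granules, were at −2.64 ± 0.20 and −2.60 ± 0.20. Mast cell and basophil genes had 3 of 4 at 2-fold lower and summed signals of 1.74 and 0.685, though 2 of the 4 were detected in wild-type RNA only. Fcer1a and Ms4a2, which define these cells, were not above background.

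Erythroid genes, whose line shares a progenitor with megakaryocytes, had 2 of 11 at 2-fold lower, 0 higher and a median of −0.23 (0.29 without scaling), with summed signals of 209 and 138. Most of each sum came from the globin genes Hba-a1 (129901 and 138087, −0.43 ± 0.20) and Hbb-b2 (46226 and 19977). Hbb-b2, a beta-globin gene with near-identical copies, was at −1.73 ± 0.20 and Rhd at −1.09 ± 0.20, while Alas2, for haem synthesis, was at 0.10 ± 0.20 and Klf1 at 0.73 ± 0.22. Blood stem and progenitor genes had 0 of 9 at 2-fold, a median of 0.01 that changed sign under other settings, and summed signals of 14.8 and 14.3, with Kit at 0.58 ± 0.21 and Cd34 at −0.37 ± 0.20. No test separates the platelet genes from these lists.

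Endothelial genes, which include Vwf, had a median of 0.38 with Vwf the single gene at 2-fold lower, and summed signals of 29.8 and 34.1. Monocyte genes had 0 of 6 at 2-fold (median −0.21, summed 72.4 and 63.3), and red pulp macrophage genes 0 of 8 (median −0.07, summed 113 and 103), both medians positive under no scaling and the latter under further scalings. B cell genes summed to 165 and 133, with 1 of 7 at 2-fold higher. T cell genes summed to 32.7 and 25.4, with 1 of 7 lower, Lat (9694 and 4081, −1.77 ± 0.20). The medians of −0.22 for B cell genes and −0.20 for T cell genes changed sign under some settings. Exocrine pancreas genes went the other way, with 11 of 11 at 2-fold higher and summed signals of 18.8 and 167. Adipocyte genes summed to 10.1 and 16.1, and 1 of 5 was 2-fold higher.

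**Figure D4:**
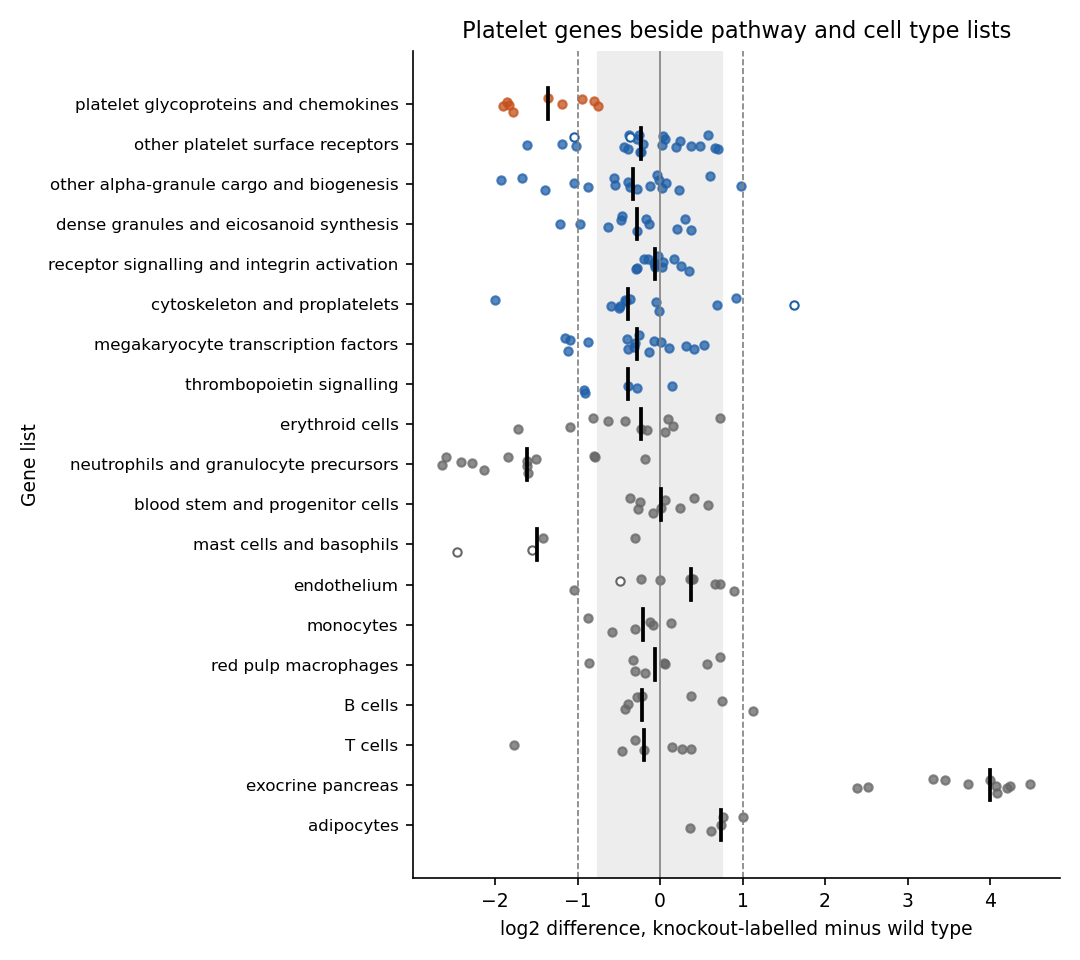
Each point is a gene, placed by its log2 difference, knockout-labelled minus wild type, on the horizontal axis, and black bars are list medians (open points, above background on 1 array alone; grey band, 5th to 95th percentile of all genes; dashed lines, 2-fold). The 9 platelet genes (top) lie at or below the lower edge of the band, neutrophil genes overlap them but have a lower median (−1.62 against −1.36), and pancreas genes lie far to the right.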

How the data were processed

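RNA of whole spleen was measured on 1 array per genotype. The deposited scanner files hold intensity values, the background-corrected processed signal with its error per spot, made with Agilent Feature Extraction 11.0.1.1 (protocol GE1_1100_Jul11, probe design on mm9), per the file headers. The authors' deposited value table holds log2 values, which serve as an alternative, and its steps are not given in the sources used here. Its results nearly equalled those of quantile normalization, with 635 genes at 2-fold and 306 of them lower in both, so it is not a separate check.

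Control spots and flagged outlier spots were left out (110 and 132 spots), log2 signals averaged per probe and each array's 75th percentile subtracted. Accessions were named through RefSeq (GRCm38.p6), which named 27226 of 39420 probes. The brightest probe above background on at least 1 array stood for a gene, giving 13716 genes, and 2-fold was the mark. For a gene above background on 1 array alone a bound is given, with the dim signal raised to the lowest one detected on that array where it was below it. Where the dim signal was not below it, the measured difference is given, which is no minimum. Precision is limited by the number of arrays. Python 3.11.15, R 4.3.3 and limma 3.58.1 (normexp) were used, and the calculation was tested on simulated data.

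The 10 genes and all lists were chosen with earlier results of these data known. Named genes are the 10, up to 4 per pathway list and 2 per cell type list with the largest differences at 2-fold and probes of 1 sign, genes on 1 array alone, and neighbours. Genes that met this mark in the mast cell and basophil, B cell, exocrine pancreas and adipocyte lists were counted but not named. Others (such as Cd36, Itgb1, Cd63, Itga6, P2ry12, Srgn, Tgfb1, Fli1, Runx1, Kit, Klf1 and Slc35d3) were chosen after their values were seen. Cell type values stand beside the platelet genes only.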

Additional observations from a re-analysis of the deposited data

How the results depend on the processing

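All 99 values of the 9 genes under 11 alternatives stayed below 0. These are not 11 separate checks. Asking for detection on both arrays, or leaving out the filter on dim probes, left the values of the 9 genes unchanged. Keeping outlier spots altered Gp1ba alone, and the deposited table nearly repeated quantile normalization. The count at 2-fold lower lay between 4 (no scaling) and 9 (a mark of 1.5-fold, where 9.48% of all genes were lower). Treml1, Gp1ba, Ppbp and Pf4 were 2-fold lower under each alternative. The genes' median was −0.84 without scaling and −1.67 with normexp on the median spot signal (offset 50), an alternative chosen after the data were seen because the mean signal planned for it was not among the columns used here. The pathway genes at 2-fold lower numbered 4 (and 10 higher) without scaling, 8 with scaling on probes above background on both arrays and 20 at 1.5-fold. All genes at 2-fold numbered 1569 without scaling, 337 with normexp, 1312 with no filter on dim probes and 2403 at 1.5-fold, beside 662. Leaving out the scaling moved the median of all genes from −0.09 to 0.43, and scaling on probes above background on both arrays turned it positive too. Of all genes at 2-fold, 53.2% were higher, against 41.2% with median scaling, 93.5% with none and 70.9% with scaling on probes above background on both arrays. No paired analysis was possible because each group has 1 array. Dim probes, such as those of Gp1bb, Gp5 and Itga2b, limit what can be read.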
